A study of Mus musculus with 2 samples.

Results

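The peaks described here lie in the deep interior of very long genes. A peak was a member when it was autosomal, its summit lay in exactly 1 annotated gene span of the mouse build mm10, that gene was protein-coding, and the summit was more than 100000 bases from both ends of the span. By this rule 1136 peaks were deep, of 38366 peaks in all and of 29415 autosomal peaks in exactly 1 protein-coding span (3.86%, exact Clopper-Pearson 95% interval 3.65 to 4.09). They lay on all 19 autosomes. Only a gene with a span over 200000 bases can hold such a peak, and 945 autosomal protein-coding genes were that long. Of these, 370 held at least 1 deep peak (39.2%, exact Clopper-Pearson 95% interval 36.0 to 42.35).

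The study mapped N6-methyladenosine (m6A) in RNA of wild-type C57BL/6 mouse uterus by methylated RNA immunoprecipitation sequencing, which sets the RNA pieces that an anti-m6A antibody pulls down against RNA that saw no antibody (the input). The m6A group was 1 library from whole uterus, made with a Synaptic Systems antibody, and its label gives equal parts of uterus from gestation day 4 and gestation day 8. The input group was 1 library from whole uterus with no antibody, and its label names no gestation day and no pooling. With 1 library per group there was no replicate, so all values below hold for these libraries alone and no group test could be made. The number of animals is not given in the sources used here, a pool hides any difference between the days, and the names in the peak list mention day 8 alone.

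Methyl groups are placed on adenosines of new transcripts in the nucleus by a complex around METTL3 and METTL14, mostly within short motifs such as GGACT, and reader proteins of the YTH family then bind the mark and affect splicing, export, decay or translation. In mature mRNA the mark is known to be dense near stop codons and in long internal exons. Most of the span of a very long gene is intron, so a peak far from both gene ends can lie in an internal exon, at an internal transcription start or in intronic RNA. Exon positions were not used here, so these cases are not separated except where an annotated internal start lies close by.

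Annotated internal starts were the sequence feature that could be read next to deep peaks. RefSeq's mm10 promoter windows, each from 250 bases before to 50 bases after a transcript start, placed 165 starts in 126 long genes at more than 100000 bases from both span ends. A deep summit lay within 1000 bases of 16 of these starts (9.70%), giving 17 of the 1136 deep peaks, in 16 genes. Those 17 peaks had a median fold enrichment of 6.92 and ranged from 3.05 to 28.7, where fold enrichment is the authors' ratio, at the summit, of fragments in the immunoprecipitated (IP) library to the background around it. The windows below show the 3 summits closest to such a start and the strongest of the 17. They are written 5′ to 3′ on the strand of the gene, with capitals for the bases that lie inside the peak.

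Tenm3, chr8:48674641-48674940, minus strand: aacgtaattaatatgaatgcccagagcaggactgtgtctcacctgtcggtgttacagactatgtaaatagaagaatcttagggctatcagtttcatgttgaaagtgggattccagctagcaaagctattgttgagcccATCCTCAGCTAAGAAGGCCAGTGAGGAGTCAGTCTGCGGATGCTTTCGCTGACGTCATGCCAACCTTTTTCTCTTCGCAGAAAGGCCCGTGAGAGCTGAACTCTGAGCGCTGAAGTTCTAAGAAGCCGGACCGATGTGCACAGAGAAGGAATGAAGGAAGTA
Prkg1, chr19:31664321-31664620, minus strand: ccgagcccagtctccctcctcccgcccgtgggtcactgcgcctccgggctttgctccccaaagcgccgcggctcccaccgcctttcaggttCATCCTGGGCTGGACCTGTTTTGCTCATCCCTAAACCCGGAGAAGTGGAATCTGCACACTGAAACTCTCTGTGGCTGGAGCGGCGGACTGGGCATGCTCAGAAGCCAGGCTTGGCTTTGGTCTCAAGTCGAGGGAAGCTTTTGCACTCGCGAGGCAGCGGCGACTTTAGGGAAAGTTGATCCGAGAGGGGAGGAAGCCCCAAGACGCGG
Chd9, chr8:90931999-90932298, plus strand: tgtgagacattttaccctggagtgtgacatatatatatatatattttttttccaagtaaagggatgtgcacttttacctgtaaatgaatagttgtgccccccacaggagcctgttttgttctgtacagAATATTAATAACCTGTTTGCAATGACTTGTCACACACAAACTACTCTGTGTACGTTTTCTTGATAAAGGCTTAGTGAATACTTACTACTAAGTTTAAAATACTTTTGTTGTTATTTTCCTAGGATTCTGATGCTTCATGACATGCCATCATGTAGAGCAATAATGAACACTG
Asic2, chr11:81152854-81153153, minus strand: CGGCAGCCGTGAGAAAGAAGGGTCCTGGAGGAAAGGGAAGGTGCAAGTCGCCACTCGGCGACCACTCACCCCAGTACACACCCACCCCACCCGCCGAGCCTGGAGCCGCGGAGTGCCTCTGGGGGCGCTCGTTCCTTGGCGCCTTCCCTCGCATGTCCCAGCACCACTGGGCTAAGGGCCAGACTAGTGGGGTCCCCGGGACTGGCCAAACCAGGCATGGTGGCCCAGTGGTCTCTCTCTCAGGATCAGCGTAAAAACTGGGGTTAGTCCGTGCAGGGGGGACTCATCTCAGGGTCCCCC

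In Tenm3, which encodes a teneurin adhesion receptor of nerve wiring, the summit lay 19 bases upstream of the start and 162 bases of the window were inside the peak. In Prkg1, the cGMP-dependent protein kinase that relaxes smooth muscle, the summit lay 35 bases downstream of the start and the peak covered 209 bases of the window. In Chd9, a chromatin remodeller, it lay 62 bases downstream and the peak covered 172 bases. These 3 peaks were of moderate height, at 5.94-fold in Tenm3 (13 IP fragments), 6.92-fold in Prkg1 (23 fragments) and 9.30-fold in Chd9 (60 fragments). The Asic2 window, from the gene of an acid-sensing ion channel, lay wholly inside its peak, whose summit was 470 bases upstream of the start. It reached 28.7-fold (exact 95% Poisson interval 22.9 to 35.6) with 81 IP fragments against a background of 1.85. All such intervals hold the background fixed and cover counting error only.

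The motif GGACT was searched on the strand of the gene alone, and no other motif was searched. It stood inside the peak part of the Prkg1 window (1 match) and of the Asic2 window (2 matches). In Tenm3 it stood outside the peak part (1 match), and it was not found in Chd9. The search covered 8 windows near deep summits with at least 100 bases inside the peak. Of these, 3 held GGACT, 2 of them in the peak part. The windows of Sorbs2, Celf2, Pde7b and Nav1, not shown here, held no match. Of the 32851 windows in the table, 26.1% held GGACT, so a match in a single window describes that window only. Among the other deep summits near a start, Palld, which encodes the actin-bundling protein palladin, had a 16.1-fold peak 172 bases from a start. Robo1, the receptor for Slit guidance proteins, had an 11.2-fold peak 676 bases from one. The remaining deep peaks had no such start within 1000 bases in the table, which holds no windows of chromosome 18.

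Deep peaks were concentrated in some of the long genes. Of the 370 genes, 155 held 1 deep peak, 78 held at least 5 and 18 held at least 10, with a median of 2 and a maximum of 21. The 78 genes together held 614 deep peaks, or 54.05% of all. On either side of the limit, only summits in exactly 1 gene span were counted. Peaks of long genes lay on both sides in 312 genes, only deep in 58 and only near the ends in 320, while 255 had none. Where both kinds were present, the highest peak of the gene was a deep one in 121 of 312 genes (38.8%).

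Longer genes, which offer more interior, held a deep peak more often. The share was 20.6% of 412 genes with spans of 200 to 300 kb, 48.9% of 317 genes of 300 to 500 kb, 57.1% of 161 genes of 500 to 1000 kb, and 69.1% of 55 genes over 1000 kb. Per megabase of interior, the order was the opposite: 8.46, 8.18, 4.30 and 2.91 deep peaks. The median span was 409.6 kb in genes with a deep peak and 280.1 kb in those without. Fold enrichment had no such order over the 4 span classes, with medians of 5.99, 5.94, 5.94 and 6.16.

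Peak density fell off from the gene ends inward and was lowest in the deep zones. In the long genes there were 142 peaks per megabase within 1 kb of an end, 41.1 from 1 to 10 kb, 12.3 from 10 to 50 kb and 9.15 from 50 to 100 kb. In the deep zones the density was 7.51 per megabase from 100 to 200 kb (exact 95% Poisson interval 6.999 to 8.05) and 3.58 beyond 200 kb (3.21 to 3.98). The 2 deep zones together held 5.65 peaks per megabase over 200.9 megabases. These zone densities count only bases that lie in exactly 1 gene span, whereas the densities by span class and by gene count the whole interior. The last zone exists only in the longer of these genes, so the last step also changes the genes.

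**Figure D1:**
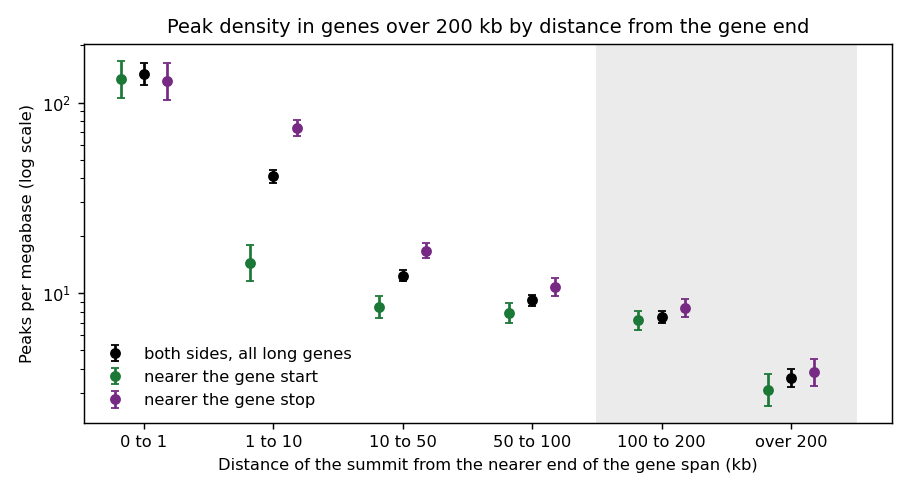
Peaks per megabase of bases in exactly 1 gene span (log axis), by distance of the summit from the nearer end of the gene. Values are for 945 autosomal protein-coding genes over 200 kb, with exact 95% Poisson intervals, and the shaded zones are the deep ones. Black points are all long genes, and green and purple points are the sides nearer the start and the stop in the 707 genes with a known strand, which differ most from 1 to 10 kb, at 14.5 against 73.5 peaks per megabase.

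The strand was known for 707 long genes, of which 289 held 887 deep peaks, so that the side nearer the transcript start and the side nearer its far end (the stop side) could be set apart. From 1 to 10 kb the stop side had 73.5 peaks per megabase and the start side 14.45. From 100 to 200 kb the values were 8.35 (7.48 to 9.29) on the stop side and 7.21 (6.41 to 8.09) on the start side, and the intervals overlapped. Beyond 200 kb they were 3.85 and 3.12, again with overlapping intervals. Of the 887 deep peaks, 408 lay nearer the gene start (46.0%, exact Clopper-Pearson 95% interval 42.7 to 49.3) and 479 nearer the other end. Median fold was 5.87 on the start side and 6.06 on the stop side.

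Deep peaks had much the same median fold as other peaks, but rested on fewer fragments. Their median fold was 6.00 (exact binomial 95% interval of the median 5.82 to 6.16), with quartiles of 4.71 and 7.86 and a range of 1.70 to 54.3. The median was 6.05 (5.90 to 6.16) in the 2557 peaks nearer the ends of long genes, 6.12 (6.06 to 6.16) in the 25722 peaks of genes up to 200 kb, and 6.16 over all peaks. These intervals describe the spread over peaks of 1 list and not over replicates. A fold of at least 10 was reached by 14.8% of all peaks and by 142 deep peaks (12.5%, exact Clopper-Pearson 95% interval 10.6 to 14.6), in 107 genes. The share was 13.7% nearer the ends of long genes and 14.9% in shorter genes.

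Coverage separated the sets. The median deep summit had 18 IP fragments, against 24 nearer the ends of long genes and 34 in shorter genes, and these intervals of the median did not overlap. Median local background was 1.85 scaled fragments in deep peaks, 2.48 nearer the ends and 4.32 in shorter genes. At 113 deep summits (9.95%, exact Clopper-Pearson 95% interval 8.27 to 11.8) the background stood at the genome-wide level of 0.462, so no nearby input signal raised it. That share was 6.45% nearer the ends and 3.57% in shorter genes. Deep peaks were also narrower, with a median width of 289 bases against 328 and 344, and 62 of them (5.46%) were at least 1000 bases wide against 10.1% and 11.2%.

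**Figure D2:**
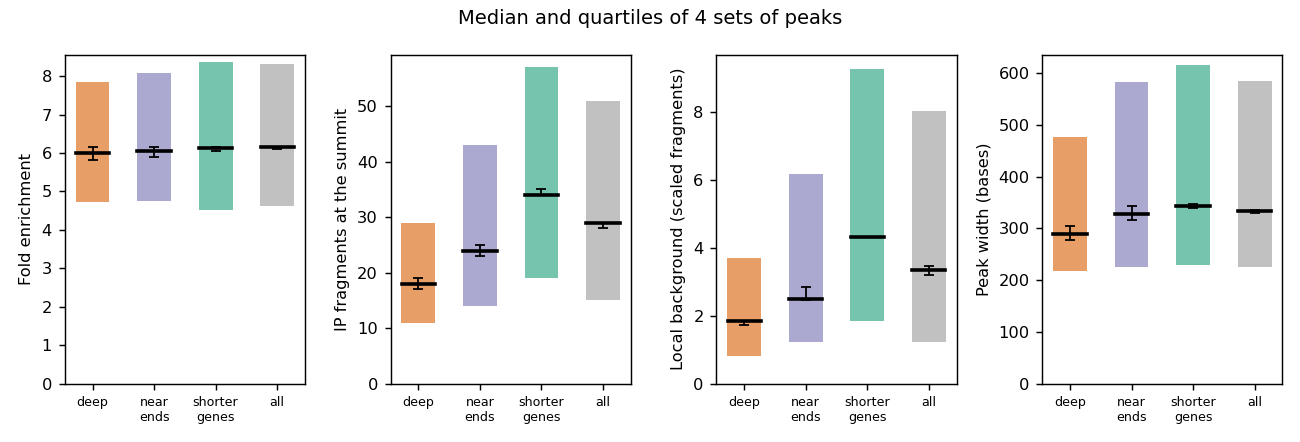
Median (line), exact binomial 95% interval of the median (whiskers) and quartiles (box) of fold enrichment, IP fragments at the summit, local background in scaled fragments and peak width in bases, for 1136 deep peaks, 2557 peaks nearer the ends of long genes, 25722 peaks of genes up to 200 kb and all 38366 peaks. Fold boxes lie at like heights, at medians of 6.00 to 6.16, while fragments and background step up from the deep peaks at 18 and 1.85 to those of shorter genes at 34 and 4.32.

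The likeness in fold depended on the 1 fragment that the peak caller adds to both terms. With none added, the medians took the opposite order, 9.72 in deep peaks, 8.83 nearer the ends and 8.02 in shorter genes. Peaks were therefore also compared at like background with the deposited fold. At backgrounds from 2 to 4 the median fold was 5.75 (5.38 to 6.06) in 228 deep peaks, 6.515 (6.12 to 6.72) nearer the ends and 7.01 (6.92 to 7.12) in shorter genes, with no overlap of the intervals. Above the genome-wide level and up to 1, it was 6.23 (6.125 to 6.66) in 211 deep peaks against 7.31 and 7.42, and from 1 to 2 it was 6.66 in 318 deep peaks against 6.71 and 7.43. From 4 to 8 the deep median of 5.34 (5.02 to 5.95) reached into the interval of the shorter genes, at 6.03 (5.945 to 6.10), and above 8 the 3 medians lay between 4.32 and 4.52. At the genome-wide level all 3 were 6.16.

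**Figure D3:**
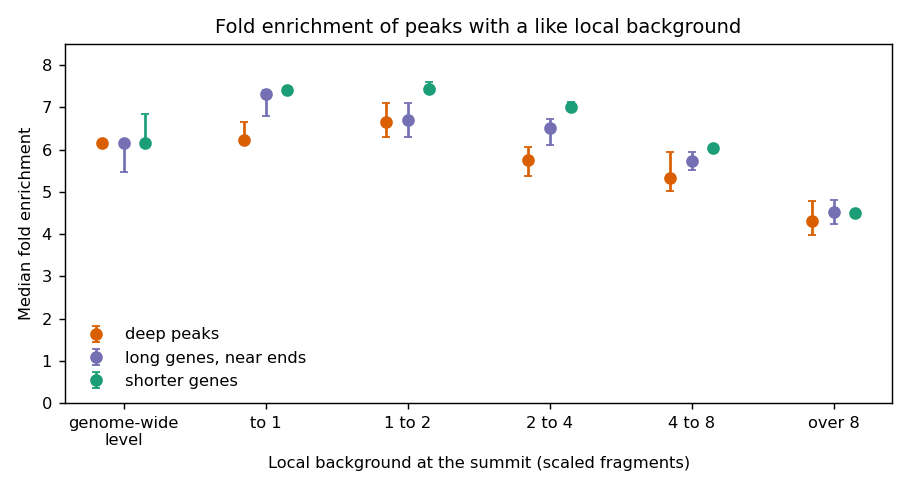
Median fold enrichment with exact binomial 95% intervals, by local background at the summit in scaled fragments, for deep peaks, peaks nearer the ends of long genes and peaks of shorter genes. Deep peaks are lower than peaks of shorter genes from just above the genome-wide level up to 4, for example 5.75 against 7.01 at backgrounds of 2 to 4, and the sets meet above 8 and at the genome-wide level.

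By the caller's own q-value, 920 of 1136 deep peaks (81.0%) had a −log10 q of at least 5. Neighbouring deep peaks were common. Within the same gene 430 deep summits (37.85%, exact Clopper-Pearson 95% interval 35.0 to 40.75) had another deep summit within 5000 bases, against 45.6% for peaks nearer the ends of long genes. Where a gene had several, the median distance to the nearest was 6.96 kb, and 330 deep peaks had none within 50 kb. Median fold was 5.82 for those with a close neighbour and 6.16 for the rest.

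The 12 genes with the most deep peaks together held 166 of them (14.6%). Of the 166, 28 were at least 10-fold (16.9%). Rbms3, which encodes an RNA-binding protein of the single-strand-interacting family, led with 21 deep peaks and 3 nearer its ends. Its span was 1057 kb on chromosome 9, and its deep peaks ranged from 3.51-fold to 29.1-fold with a median of 6.89. In Rbms3, 7 of the 21 were at least 10-fold. The 2 highest lay at chr9:116837443-116838477, with 76 IP fragments against a background of 1.64 (29.1-fold, 23.0 to 36.4), and at chr9:116710528-116711241, with 70 against 1.495 (28.5-fold, 22.3 to 35.85). They stood well above the next Rbms3 peak, at 15.3-fold.

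**Figure D4:**
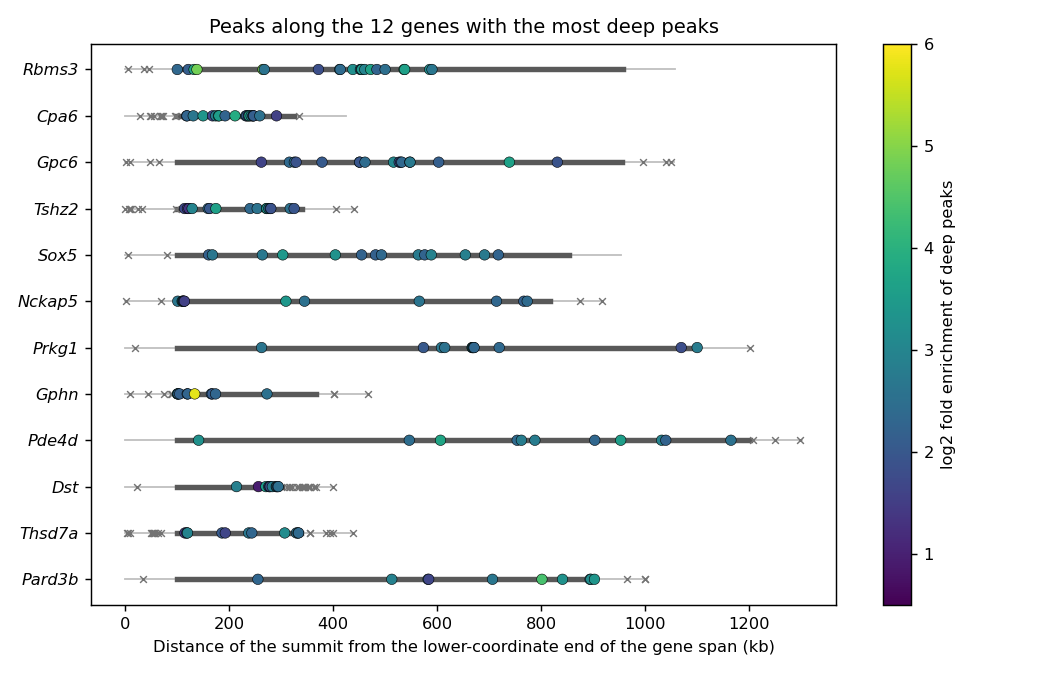
Position of peaks along the 12 genes with the most deep peaks, as distance in kb from the lower-coordinate end of the span; thick bars mark the deep interior, filled circles are deep peaks coloured by log2 fold enrichment and crosses are peaks nearer the ends. Rbms3 and Sox5 hold most of their peaks in the interior (21 and 14 deep), while Dst and Thsd7a hold more near the ends (17 each) than deep (11 each).

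Cpa6, which encodes a carboxypeptidase of the extracellular matrix, held 20 deep peaks in an interior of 224 kb, or 89.2 per megabase. These were thinly covered, with 7 to 32 IP fragments (median 13) and folds of 2.94 to 14.8 (median 5.27). Gpc6, a glypican that carries heparan sulfate at the cell surface, had 17 deep peaks in a span of 1055 kb. Its coverage was higher, at 14 to 83 fragments (median 40), and its median fold was lower, at 4.44. Tshz2, a teashirt zinc finger transcription factor, had 16 deep peaks, with 20 to 177 fragments (median 53) and a median fold of 5.375. The 177 fragments were the most at any deep summit, yet stood on a background of 28.4, which gave 6.05-fold (5.199 to 7.01).

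Sox5, a transcription factor best known from cartilage, had 14 deep peaks from 4.48-fold to 10.7-fold, spread over 557 kb, and 2 nearer its ends, of which 1 reached 24.5-fold. Nckap5, named for binding the adaptor Nck, had 12 deep peaks, 5 of them between 109592 and 114019 bases from its nearer end. Prkg1 had 12 deep peaks in a span of 1201 kb, of which 5 lay between 529865 and 533632 bases from the nearer end, and the highest reached 10.6-fold. Pde4d, a phosphodiesterase that breaks down cAMP, had 11 deep peaks over 1020 kb, from 4.675-fold to 13.4-fold. Its highest lay 606 kb from the nearer end, with 52 fragments against 2.96. Pard3b, a cell polarity scaffold, had 10 deep peaks, and 1 stood out at 21.0-fold with the next at 10.3-fold.

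Dst and Thsd7a had dense deep peaks at high coverage. Dst, the cytoskeletal linker dystonin, had 11 deep peaks with 34 to 100 fragments and folds of 1.91 to 11.5, and 10 of them lay between 106229 and 144502 bases from the nearer end. Its widest measured 5066 bases and was the widest deep peak of all. Thsd7a, a membrane protein with thrombospondin repeats, had 11 deep peaks with 12 to 162 fragments, none of them at 10-fold. The summit with 162 fragments stood on a background of 32.1 and reached 4.92-fold. Its highest fold, 8.84, was at a summit with 57 fragments. In Dst the summit with 100 fragments was 6.64-fold and that with 94 was 7.46-fold, while the 11.5-fold peak had 53. In both genes the most covered deep summit was thus not the one of highest fold.

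Gphn held the strongest deep peak of all. The gene encodes gephyrin, which anchors inhibitory receptors at synapses and also makes the molybdenum cofactor in other tissues. Its peak at chr12:78350786-78351113, 134 kb from the nearer end, had 154 IP fragments against a background of 1.85 and was 54.3-fold enriched (46.1 to 63.6). The other 10 deep peaks of Gphn ranged from 4.21-fold to 12.1-fold, with 8 to 26 fragments. A single summit of 328 bases therefore stood apart from its gene.

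St6galnac3, a sialyltransferase of glycolipids and glycoproteins, had the next highest, 41.6-fold (34.9 to 49.2), at chr3:153624053-153625365, with 134 fragments against 2.25. It lay 100689 bases from the nearer end, just inside the limit, and the other 8 deep peaks of the gene ranged from 3.93-fold to 13.3-fold. Fhit, a hydrolase of dinucleotides and a tumour suppressor, reached 26.7-fold (19.1 to 36.4) with 38 fragments at the genome-wide background. The deep peaks on either side of it stood at 13.6-fold and 10.95-fold. Pcdh15, a protocadherin of the hair cell tip link, reached 25.3-fold with 36 fragments, also at the genome-wide background. It had no single-span peak nearer its ends.

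Setbp1, whose protein binds the SET oncoprotein, reached 23.4-fold with 83 fragments in a peak 3661 bases wide. Pde7b, another cAMP phosphodiesterase, reached 23.3-fold, and its other 3 deep peaks stood at 10.6-fold, 10.2-fold and 9.33-fold. Hhat, which attaches the palmitate of hedgehog proteins, reached 23.3-fold with 33 fragments at the genome-wide background. Wwox, an oxidoreductase with WW domains, reached 23.0-fold at 380.2 kb from the nearer end, while its other 5 deep peaks lay between 4.88-fold and 9.495-fold.

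The peaks farthest from any gene end were weak. Fhit had 2 at 793566 and 759320 bases, with 7 and 10 fragments and folds of 5.40 and 4.92, and Nrxn3, which encodes a presynaptic neurexin, had 1 at 737317 bases with 5 fragments (3.71-fold, 1.62 to 7.83). The densest interiors among genes with at least 5 deep peaks were those of Syne2, Cpa6 and Ube2e2. Syne2, the nesprin that ties nucleus to cytoskeleton, had 9 deep peaks at 97.2 per megabase, and Ube2e2, a ubiquitin-conjugating enzyme, had 9 at 74.6 per megabase. In Ube2e2 the 9 formed 2 groups, 5 peaks at 5.38-fold to 9.11-fold and 4 peaks at 2.12-fold to 3.465-fold. The widest deep peaks after that of Dst were those of Tshz2 (5044 bases) and Prune2 (4524 bases, 6.80-fold).

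Some genes held deep peaks and none nearer their ends. The most, 7, were in Cdkal1, which modifies transfer RNA, followed by Ccser1 and the propionyl-CoA carboxylase gene Pcca with 6 each, and by the alpha-catenin gene Ctnna3 and the histone deacetylase gene Hdac9 with 5 each. These 5 genes were chosen after their values were seen. Their highest folds were 10.7 in Cdkal1, 11.75 in Ccser1, 8.615 in Pcca, 13.0 in Ctnna3 and 6.16 in Hdac9, with medians of 8 to 15 fragments per gene. The 58 genes of this kind held 107 deep peaks.

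The limit of 100000 bases cut through a continuous range. Just inside it lay a Magi3 peak at 100005 bases (9.95-fold), an Asph peak at 100006 bases (3.17-fold) and a Foxn3 peak at 100100 bases (7.525-fold). Just outside lay peaks of Scaper at 99950 bases (5.22-fold), Tnik at 99834 bases (6.16-fold) and Ralgapa1 at 99794 bases (3.16-fold). IP fragments ran from 10 to 21 in the former and from 8 to 47 in the latter.

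Cell type markers were checked in the peak list as a whole. At least 1 peak was found in 5 of 5 markers each of smooth muscle, stroma and epithelium, 4 of 4 of endothelium, 3 of 3 of immune cells, 2 of 4 of nerve (Rbfox3 and Tubb3, not Snap25 or Gfap) and 0 of 3 of trophoblast. The share of all genes with a peak was not worked out, so these counts do not set any cell type apart. A peak shows neither how much RNA a gene gave nor which cells gave it. In whole tissue, fewer cells of a type and less RNA per cell cannot be told apart. Genes without a deep peak may likewise be unmethylated, little expressed or thinly covered there.

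Lists of long genes by role were set beside the 39.2% of all long genes with a deep peak. A gene may be in more than 1 list, and the lists differ in span. Their medians of fold are set beside the 6.00 of all deep peaks, and shares at 10-fold beside the 12.5%.

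**Figure D5:**
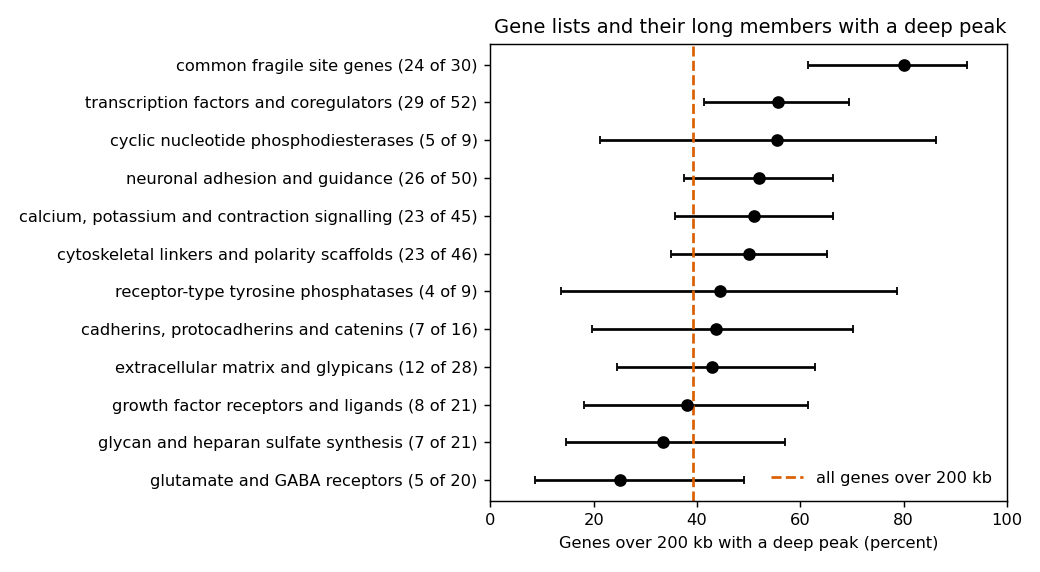
Percent of genes over 200 kb with at least 1 deep peak in 12 lists of genes, with exact Clopper-Pearson 95% intervals and the counts beside each name; the dashed line is the 39.2% of all 945 long genes. Common fragile site genes lie highest at 24 of 30 and glutamate and GABA receptors lowest at 5 of 20, and most intervals include the line. The line is not matched to the spans of the lists.

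Calcium entry, potassium currents and cyclic nucleotides set the contraction of smooth muscle such as that of the uterine wall. Of 45 long genes for calcium and potassium handling and contraction signalling, 23 held a deep peak (51.1%, exact Clopper-Pearson 95% interval 35.8 to 66.3). Their 76 deep peaks had a median fold of 6.22, and 10 were at least 10-fold (13.2%). Slc8a1, the sodium-calcium exchanger, had 1 deep peak of 18.5-fold with 96 fragments against 4.24. Plcb1, a phospholipase C that releases calcium signals, reached 13.9-fold and the protein kinase C gene Prkce 12.6-fold. Of 9 long phosphodiesterase genes, 5 held a deep peak (55.6%, 21.2 to 86.3). Their 23 peaks had a median of 6.95, and 6 were at least 10-fold, led by Pde7b, Pde4d (13.4-fold) and Pde10a (10.3-fold). Median spans were 385.0 kb in the calcium and potassium list and 362.1 kb in the phosphodiesterase list. Over all genes of 300 to 500 kb the share was 48.9%, which lay inside both intervals.

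Among 52 long genes for transcription factors and coregulators, 29 held a deep peak (55.8%, exact Clopper-Pearson 95% interval 41.3 to 69.5). Their 97 peaks had a median of 5.65, and 14 were at least 10-fold (14.4%). After Setbp1 the highest were Zfhx3, a zinc finger homeobox factor, at 18.9-fold with 137 fragments against 6.30, and Maml3, a coactivator of Notch. All 4 deep peaks of Maml3 are shown by their folds: 15.3, 14.8, 11.2 and 5.19. Esr1, the estrogen receptor alpha that drives uterine growth, had 7 deep peaks of low fold. They ran from 2.85-fold to 7.47-fold (median 3.28) on backgrounds of 5.56 to 24.7, with 23 to 75 fragments, and the highest of the 10 peaks nearer the ends of Esr1 was 9.96-fold.

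Cytoskeletal linkers and polarity scaffolds had a deep peak in 23 of 46 long genes (50%, exact Clopper-Pearson 95% interval 34.9 to 65.1). The 86 peaks had a median of 5.69, and 8 were at least 10-fold (9.30%). Pard3, the partner of Pard3b in cell polarity, held both the lowest deep fold of all, 1.70 at a background of 29.6, and 1 of 19.0. Fmn1, a formin that builds actin cables, reached 16.4-fold. The median span of this list was 339.0 kb, and 48.9% of all genes of 300 to 500 kb held a deep peak.

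Matrix and adhesion genes were near the share of all long genes, but their lists differ in span. Median spans were 342.7 kb in the matrix list, 724.6 kb in the cadherin list and 687.6 kb in the phosphatase list. The share over all genes was 48.9% at 300 to 500 kb and 57.1% at 500 to 1000 kb. Each lay within the intervals given here for the lists of that median span. Extracellular matrix and glypican genes had a deep peak in 12 of 28 (42.9%, exact Clopper-Pearson 95% interval 24.5 to 62.8), with 47 peaks of median fold 5.22, led by Gpc6 at 12.7-fold, Adamtsl1 at 11.7-fold and the laminin chain gene Lama2 at 11.3-fold. Cadherins, protocadherins and catenins had one in 7 of 16 (43.75%, 19.75 to 70.1). Of the 19 peaks there, with a median of 6.84, 6 were at least 10-fold (31.6%). After Pcdh15 these were led by Cdh23, its partner in the tip link, at 16.4-fold and by the giant cadherin gene Fat3 at 15.7-fold. Receptor-type tyrosine phosphatases had one in 4 of 9 (44.4%, 13.7 to 78.8), with 20 peaks of median 5.73, led by Ptprm at 17.0-fold, Ptprk at 8.06-fold and Ptprd at 7.36-fold.

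Genes named for neurons were represented too. Neuronal adhesion and guidance genes had a deep peak in 26 of 50 (52.0%, exact Clopper-Pearson 95% interval 37.4 to 66.3), with 58 peaks of median fold 5.47. Among the highest were Adgrb3, an adhesion receptor of synapses, at 19.8-fold, and the contactin gene Cntn4 at 13.0-fold. Each of these genes had 1 deep peak and no single-span peak nearer its ends. Glutamate and GABA receptor genes had one in 5 of 20 (25%, 8.66 to 49.1), with 10 peaks, among them those of the glutamate receptor genes Gria4, up to 9.76-fold, and Grid1, up to 7.525-fold. The median span was 618 kb in the adhesion and guidance list and 427.5 kb in the receptor list. Over all genes the share was 57.1% at 500 to 1000 kb and 48.9% at 300 to 500 kb. Each of these lay inside the interval of the list of that median span. Beside these lists, 2 of the 4 nerve markers had a peak, and the part of nerve cells in these values was not tested.

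Enzymes of glycan and heparan sulfate synthesis had a deep peak in 7 of 21 genes (33.3%, exact Clopper-Pearson 95% interval 14.6 to 57.0), with 19 peaks of median fold 6.12. After St6galnac3 came Csgalnact1, which starts chondroitin sulfate chains, at 14.3-fold. Growth factor receptors and ligands had one in 8 of 21 (38.1%, 18.1 to 61.6), with 15 peaks of median 4.95. Of these 1 was at least 10-fold, in the follistatin-like gene Fstl5 at 10.5-fold, followed by Bmper, a regulator of BMP signalling, at 9.58-fold and the growth hormone receptor gene Ghr at 8.22-fold. Median spans were 314.1 kb in the glycan list and 365.9 kb in the growth factor list. The 48.9% of all genes of 300 to 500 kb lay inside both intervals.

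Genes of common fragile sites, stretches of chromosome that break when replication is slowed, had a deep peak in 24 of 30 (80.0%, exact Clopper-Pearson 95% interval 61.4 to 92.3). They were also the longest list, with a median span of 1014 kb. Their 136 deep peaks had a median fold of 6.25, and 15 were at least 10-fold (11.0%). The list was led by Gphn, Fhit and Wwox, described above, and among the 12 lists its interval and that of the transcription factors lay wholly above 39.2%. The lists were chosen with earlier results of these data known, so these intervals are no test. Over all lists together, the unreported list included, 171 of 366 long genes held a deep peak. In the span class over 1000 kb the share was 69.1% (55.2 to 80.9) over all genes, which overlaps the interval of the fragile site list. The transcription factor list had a median span of 366.9 kb. All genes of 300 to 500 kb had a share of 48.9%, which lies inside that list's interval of 41.3 to 69.5.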

How the data were processed

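The labels' protocols give total RNA extracted with TRIzol and a strand-keeping library kit (NEBNext Ultra II Directional). HISAT2 2.2.1, MACS3 3.0.0a7 and the build mm10 are named in the submitters' processing notes, while the sources used here give no settings, duplicate handling or library sizes. The authors deposited 1 peak list of the m6A library against the input. Its fold enrichment is a ratio written by the authors' peak caller, used here only to rank, filter and describe the peaks of that list. The −log10 p-value and the −log10 q-value of each summit were deposited by the authors as well, with no −log10 q under 1.32. The deposited display score was not used. The list carries no strand.

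IP fragments and background were recovered from the deposited fold, read as (fragments + 1)/(background + 1), and from the p-value, read as a Poisson tail, with a largest difference of 0.0007 from the deposited −log10 p. In 1913 peaks simulated with these same formulas 100% of fragment numbers were recovered. That checks the recovery step and not whether the peak caller used the formulas. Depth per summit therefore rests on this reading of the deposited values. PCR copies are not independent molecules, and all intervals cover counting error only.

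Gene spans came from RefSeq on GRCm38.p6, the assembly of mm10: 49632 genes were used and 365 rows outside the assembled chromosomes were left out. Strand and internal starts came from RefSeq promoter windows. Start and end are printed counted from 1. Apart from these promoter windows, no sequence under the peaks was used, and exon positions were not used.

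The members and the gene lists were chosen with earlier results of these data known. Named genes were Esr1, the 12 genes with the most deep peaks, the genes of the 12 highest folds at a −log10 q of at least 5, of the 3 most covered, widest and farthest peaks, of the 3 peaks on either side of the limit, of the 3 densest interiors, and the 3 highest per list. Some genes that this rule selects, and 1 list, are not reported here. The genes beside internal starts and those with deep peaks only were chosen after their values were seen. Alternatives were a minimum −log10 q of 5, a minimum fold of 4, whole peaks in a span, other spans allowed, leaving out peaks at the genome-wide background, limits of 50000 and 200000 bases, and a fold with nothing added. The work was done in Python 3.11.15 with scipy 1.17.1, pandas 2.3.3, numpy 2.4.6 and matplotlib 3.10.9.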

Additional observations from a re-analysis of the deposited data

How the results depend on the processing

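With 1 library per group, leaving out a library was not possible, and no value here speaks for another pair of libraries. No paired analysis was possible because each group held a single library. The order of the sets in IP fragments and in background (deep lowest, shorter genes highest) held in all 8 settings in which they were run, the reported one included. The order of their median folds did not hold at a −log10 q of at least 5, at either other limit, or with no fragment added, and the cause was not tested.

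Of the alternative values for deep peaks, 26 moved and 43 stayed within their intervals or within the allowed range for counts. At a −log10 q of at least 5 the deep median fold was 6.47 and the median IP fragments 21, with 15.4% at 10-fold, 32.2% near another deep peak, 35.8% of long genes with a deep peak and 4.58 deep peaks per megabase. At a fold of at least 4 the median fold was 6.26, the background 1.61, the share near another deep peak 33.9% and the density 4.95. With other spans allowed 41.3% were near another, 43.3% of long genes had one and the density was 6.46. Without peaks at the genome-wide background 34.2% of long genes had one, at a density of 5.09. A limit of 50000 bases gave 2558 peaks in 895 genes, with 20 fragments on a background of 1.98. A limit of 200000 bases gave 340 peaks in 121 genes, with a background of 1.705, a width of 267.5 bases, 32.65% near another and 35.8% of long genes. With no fragment added the median fold was 9.72. The density was not run for the other limits.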
